A study of Eublepharis macularius with 4 samples.

Results

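Mesenchymal cells of the adult leopard gecko jaw that carried transcripts of MSX1 or LHX8 are described here. A cell counted as mesenchymal when it had at least 200 detected genes, at least 5 unique molecular identifiers (UMIs, each standing for 1 captured transcript molecule) summed over COL1A1, COL1A2, COL3A1, DCN and LUM, and under 10 UMIs of LOC129339097. Of 8531 cells with at least 200 genes, 1351 met this gate. Among them 696 had at least 1 UMI of MSX1 or LHX8 and are called positive cells, and the other 655 had none and are called negative cells. The cells were thus chosen by the measured UMIs of 8 genes, whose levels are given as a description only.

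MSX1 is a homeobox transcription factor that in mouse tooth germs acts in the mesenchyme beneath the dental epithelium, where it maintains BMP4. LHX8 is a LIM homeobox transcription factor that marks jaw mesenchyme derived from the neural crest and, with its relative LHX6, mouse molar mesenchyme. Dental mesenchyme exchanges BMP, FGF, WNT and hedgehog signals with the dental epithelium, and gives rise to the dentin-forming odontoblasts of the pulp and to the dental follicle. Geckos replace their teeth throughout life, so tooth germs of several stages lie in an adult jaw.

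The tissue was soft tissue of adult jaws holding unerupted teeth, dental lamina and dental mesenchyme. LG252 and LG255 are 2 animals with 2 libraries each, named replicate 1 and replicate 2, and the labels used here give no strain, sex or treatment for them. For LG252 the enzymes were dispase II (2.4 U/ml) together with collagenase D (1.5 U/ml), acting over 4 to 5 h in the warm (37 °C). For LG255 a protease from Bacillus licheniformis (10 mg/ml) acted over 6 h in the cold (4 °C). All cells were sorted as live by exclusion of propidium iodide, and 3′ transcripts were counted in droplets. Animal and dissociation changed together and cannot be told apart. The titles speak of biological replicates without saying what was separate, so p-values measure the spread between these libraries, which may be technical.

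The libraries held between 755 and 4355 barcodes and between 4535439 and 20754804 UMIs. LG252 gave 131 positive cells in replicate 1 and 501 in replicate 2, and LG255 gave 15 and 49. Their summed UMIs were 397599, 2967936, 90559 and 215669 in the same order, which is the order of every list of 4 values below. Libraries shared 30 barcodes in all, and no barcode was a positive cell in 2 libraries. The median positive cell had 2732, 4954, 6028 and 3616 UMIs, against 1617, 1644, 2739.5 and 2924 in negative cells, so positive cells were deeper in all 4 libraries. Levels are given as CPM, the UMIs of a gene per 1000000 UMIs summed over the positive or the negative cells of a library.

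LHX8 was found in more positive cells than MSX1 in each library. LHX8 (chromosome 5, 68818847 to 68838709, assembly MPM_Emac_v1.0) had UMIs in 109 of 131, 373 of 501, 13 of 15 and 47 of 49 positive cells. MSX1 (chromosome 15, 22621260 to 22626349) had UMIs in 35, 348, 3 and 6 of them. Both genes were found together in 238 positive cells, of which 220 came from LG252 replicate 2. MSX1 stood at 118, 282, 44.2 and 27.8 CPM in the positive cells, and LHX8 at 350, 253, 420 and 487 CPM. MSX1 was thus highest in LG252 replicate 2, where LHX8 was lowest. Of the positive cells, 270 had exactly 1 UMI of the pair and 426 had at least 2, and 19 had between 5 and 9 UMIs of the gate genes.

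**Figure D1:**
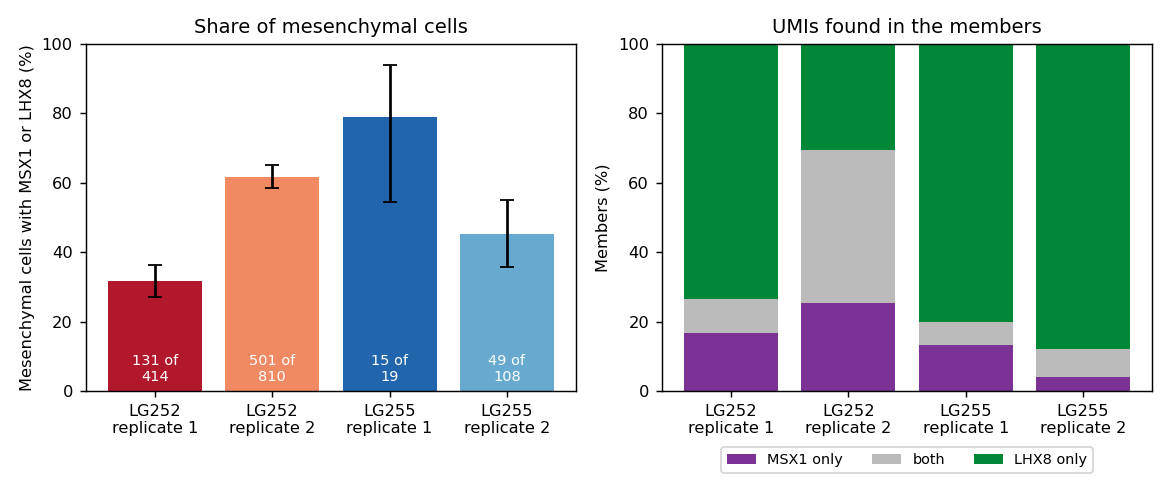
Left, the share of mesenchymal cells that were positive in each library, in percent, with exact 95% binomial intervals. Right, the makeup of the positive cells in percent by the gene found (MSX1 alone, both, LHX8 alone). LG252 replicate 2 holds most of the cells with both genes, and cells with LHX8 alone are the main class in the other 3 libraries.

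Positive cells made up 31.6% (exact 95% binomial interval 27.2 to 36.4, 131 of 414) of the mesenchymal cells in LG252 replicate 1 and 61.9% (58.4 to 65.2, 501 of 810) in replicate 2. In LG255 the shares were 78.9% (54.4 to 93.9, 15 of 19) and 45.4% (35.8 to 55.2, 49 of 108). The libraries of 1 animal therefore stood further apart than the animals, at 46.7 ± 21.4% in LG252 and 62.2 ± 23.7% in LG255 (SD, n = 2 each). The difference of 15.4 percentage points, LG252 below LG255, had a two-sided p of 0.667 in an exact permutation test, which can give no p under 0.333 with these 4 libraries. Without LG255 replicate 1, which had only 19 mesenchymal cells, the sign turned and LG252 was 1.38 points above LG255.

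The share varied with depth. In LG252 replicate 2 it went from 11.9% of mesenchymal cells under 1000 UMIs to 90.4% of those with 10000 or more. In LG252 replicate 1 it was 19.4% and 40.0% (2 of 5 cells) in the same bands. In LG255 replicate 2 it was 33.3% (2 of 6 cells) and 40.0% (4 of 10 cells). The highest shares of these 2 libraries lay between the bands, but bands of so few cells leave the trend open. With every cell thinned to 1000 UMIs and shallower cells left out, the shares were 16.1%, 31.4%, 64.7% and 18.6%. A negative cell is therefore a cell without a captured transcript, and depth moves with every comparison of positive and negative cells below.

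**Figure D2:**
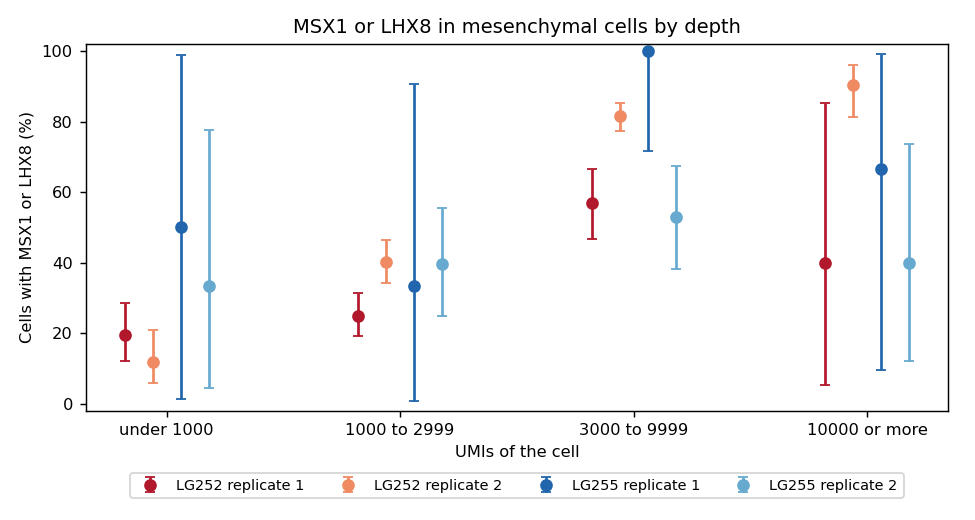
Share of mesenchymal cells that were positive, in percent, by band of UMIs per cell, for each library, with exact 95% binomial intervals. In LG252 replicate 2 the share climbs with depth from 11.9% to 90.4%, and the other libraries have bands with few cells.

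RNA free in the droplets was judged from cells without any UMI of the 5 collagen and proteoglycan gate genes. Among these, MSX1 or LHX8 was found in 1 of 2307 cells with PTPRC, the leukocyte surface phosphatase (0.0433%, median 3169 UMIs), and in 3 of 2097 cells with EPCAM, an epithelial adhesion molecule (0.143%, median 8380 UMIs). The share in mesenchymal cells was 51.5% at a median of 2842 UMIs. Pooled over libraries, the share in mesenchymal cells was thus far above that in gate-negative leukocytes and epithelium, whose pooled median depth was greater. Of the PTPRC cells, 2073 came from LG252 replicate 1, and LG255 gave only 20 and 23. In LG252 replicate 2 the pair was found in 0 of 191 PTPRC cells, which were shallower (median 2922 UMIs) than its mesenchymal cells (3674 UMIs). There 3 of 399 EPCAM cells carried it (0.752%, median 7254 UMIs). Requiring no UMI of the gate genes also leaves out cells that took up free RNA of these genes, so these low shares may understate free RNA. In cells with 1 to 4 UMIs of the gate genes the share was 1.70% (20 of 1175, median 6652 UMIs).

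The mesenchymal markers were found in every library, while some genes of the dental label differed in level between libraries. All 8 mesenchyme markers were detected in the positive cells of each library, including 3 that chose no cell. These were the growth factor receptor PDGFRA at 57.8, 57.6, 77.3 and 55.6 CPM and the transcription factors PRRX1 at 307, 386, 221 and 190.1 CPM and TWIST1 at 267, 217, 88.3 and 27.8 CPM. ALX1, a homeobox gene of facial neural crest, stood at 161, 187, 265 and 130 CPM. Of the 30 dental mesenchyme regulators tested, 29 were detected in the positive cells of LG252 replicate 1, 30 in LG252 replicate 2 and 27 and 28 in LG255. In LG252 replicate 1, 8 of the 30 (26.7%) were below all other libraries and 10 (33.3%) above them. Over all 5729 genes tested these shares were 36.0% and 24.8%, and the filter for testing left out genes found only in LG252 replicate 1. The list as a whole therefore did not set LG252 replicate 1 apart, although single regulators did, and positive cells are called by their rule throughout.

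Among transcription factors, MSX2, the relative of MSX1, had no UMI in the positive cells of LG252 replicate 1, which allows up to 7.55 CPM (3 counts), and stood at 172, 77.3 and 125 CPM in the other libraries. DLX5, a homeobox gene of the jaw and tooth, was at 15.1, 216, 287 and 385 CPM. RUNX2, needed for bone and tooth formation, was at 12.6 (95% Poisson interval 4.08 to 29.3), 427 (404 to 451), 442 (316 to 601) and 315 (245 to 400) CPM. For these genes LG252 replicate 1 lay below the other 3 libraries, with no overlap of the RUNX2 counting intervals. Other regulators ran the opposite way. OSR2, which in mouse keeps extra teeth from forming, was at 566, 264, 110.4 and 32.5 CPM, and BARX1, a homeobox gene of mouse molar mesenchyme, at 239, 40.8, 22.1 and 13.9 CPM. PAX9, which acts beside MSX1 in mouse tooth germs, was at 80.5, 88.6, 66.3 and 13.9 CPM and did not set LG252 replicate 1 apart.

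Secreted signals differed between the same libraries. RSPO4, an R-spondin that amplifies WNT signalling, had no UMI in the positive cells of LG252 replicate 1 and was at 272, 1082 and 348 CPM in the others. RSPO2 was likewise at 0, 51.9, 55.2 and 83.5 CPM, and BMP5, a bone morphogenetic protein, at 0, 92.7, 199 and 176 CPM. The hedgehog receptor and target PTCH1 was at 78.0, 243, 386 and 343 CPM, and the hedgehog-binding inhibitor HHIP at 10.1, 126, 44.2 and 125 CPM. WNT5A, a WNT ligand of the non-canonical branch, was instead highest in LG252 replicate 1, at 438, 87.6, 33.1 and 9.27 CPM. The membrane peptidase MME was at 7.55, 566, 1502 and 1155 CPM, and the proteoglycan SPOCK1 at 2.52, 117, 541 and 190.1 CPM. All 5 of RSPO4, RSPO2, BMP5, MME and SPOCK1 were thus at 0 or under 10 CPM in LG252 replicate 1 alone.

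Genes of the fibrous matrix and of complement stood highest in LG252 replicate 1. POSTN, a matrix protein of the periodontal ligament and other collagenous tissue, was at 1285, 109, 33.1 and 83.5 CPM. MFAP4, a microfibril-associated glycoprotein, was at 2855, 198, 11.0 and 32.5 CPM, and the complement protease C1S at 2653, 244, 88.3 and 241 CPM. DPT (dermatopontin), a matrix gene of connective tissue fibroblasts, was at 649, 178, 22.1 and 125 CPM. The lowest values of the follicle gene POSTN and the fibroblast gene DPT came from LG255 replicate 1, which had only 15 positive cells. A gene without any UMI there can lie anywhere up to 33.1 CPM, and neither value was above this. Their order against LG255 replicate 2 is therefore uncertain, and a relation to RSPO4 was not tested. All levels given here are of single libraries, so the differences between LG252 replicate 1 and the others have no replicate check. The intervals cover counting error only.

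The lists differed in how LG252 replicate 1 stood. Of 5729 genes tested between positive and negative cells, 36.0% were lower in the positive cells of LG252 replicate 1 than in all 3 other libraries, and 24.8% were higher. Of 30 dental mesenchyme regulators 26.7% were lower and 33.3% higher, so this list as a whole did not go one way. The WNT pathway was likewise divided, with 38.1% of 21 genes lower and 33.3% higher, and of 17 BMP pathway genes 41.2% were lower and 17.6% higher. For 9 hedgehog pathway genes 66.7% were lower, and for 10 cell cycle genes 90.0% were lower and none higher. The filter on low counts left out genes found only in LG252 replicate 1. Genes absent only there could enter through the other libraries of the fit, which favours the lower shares. Of 24 measured cell cycle genes 10 entered, and 6 of these were detected in positive cells of LG252 replicate 1. Of 35 other matrix genes 62.9% were higher, as were 66.7% of 12 genes of the TGF-beta and activin pathway and 50.0% of 14 connective tissue fibroblast genes.

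Clustering of the 1351 mesenchymal cells without MSX1 and LHX8 gave 7 clusters. Each gene was first centred and scaled within its library, so a cell was placed relative to the cells of its own library. Cluster shares of different libraries therefore do not compare absolute levels, and LG255 replicate 1 was scaled over only 19 cells. Cluster 1 (309 cells) was led by LOC129324553, MSX2, RSPO4 and SPOCK1, and 83.2% of its cells were positive. Cluster 5 (188 cells, 74.5% positive) was led by the WNT antagonists SFRP4 and SFRP2, the small proteoglycan ASPN and CRISPLD2, with the bone matrix gene IBSP further down. The other 5 clusters were between 31.8% and 47.5% positive. After thinning, 38.0% of cluster 1 and 40.5% of cluster 5 were positive, against 12.8% to 22.9% elsewhere, but most of these cells came from LG252 replicate 2. There 38.3% of 253 cells of cluster 1 and 45.9% of 146 of cluster 5 were positive. In LG255 replicate 2 they were 9 of 30 and 1 of 17, against 9 of 38 in cluster 2 and 0 of 14 in cluster 3. In LG255 replicate 1 they were 6 of 7 and 2 of 3, against 2 of 3 in cluster 2 and 0 of 3 in cluster 4. In LG252 replicate 1 they were 0 of 5 and 0 of 7. The clusters are called by number, since their leading genes took part in making them.

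Of the 696 positive cells 397 (57.0%) lay in clusters 1 and 5, and of the 655 negative cells 100 (15.3%). By library the positive cells in these clusters were 6 of 131 (4.58%), 357 of 501 (71.3%), 11 of 15 (73.3%) and 23 of 49 (46.9%). Those of LG252 replicate 1 lay mainly in cluster 3, led by C3, ALDH1A1 and MFAP4 (45.8%), and in cluster 2, led by CD74 and CXCL12 (36.6%). Among negative cells the shares in clusters 1 and 5 were 6.01%, 17.2%, 1 of 4 cells and 49.2%. In LG252 replicate 2 the share was thus higher in positive cells, and in LG255 replicate 2 it was not.

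**Figure D3:**
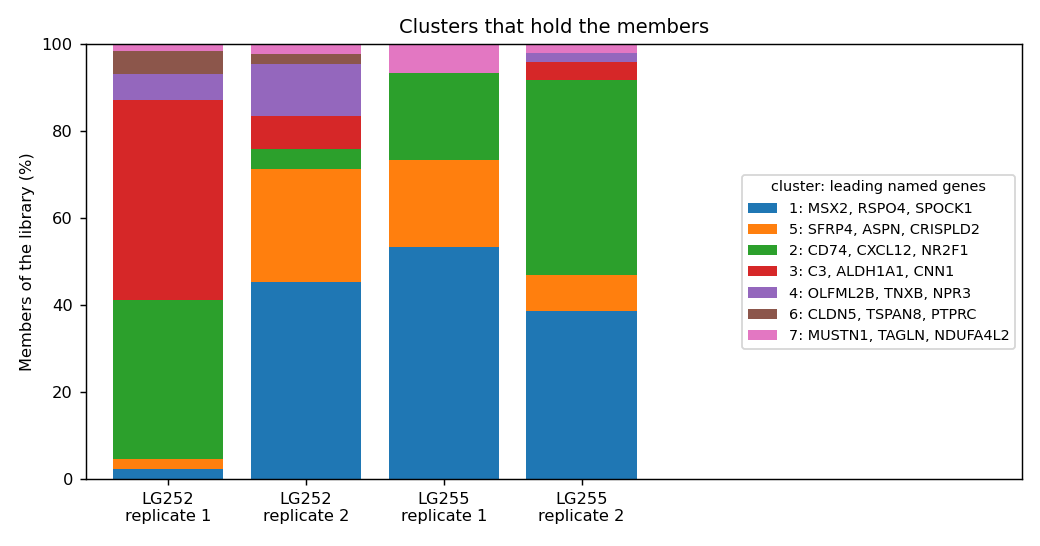
Positive cells of each library by cluster, as stacked percentages of the positive cells of that library. Genes were scaled within each library before clustering. Clusters 1 and 5 hold 71.3% of the positive cells of LG252 replicate 2 and 4.58% of those of LG252 replicate 1, most of which lie in clusters 2 and 3.

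Markers of other cell types were low in positive cells, except those of pericytes and smooth muscle and, in LG252 replicate 1, of immune cells. The summed immune markers stood at 478, 67.1, 0 and 0 CPM in positive cells and at 972, 99.3, 0 and 7.82 CPM in negative cells. In LG252 replicate 1, CD74 gave 143 of their 190 UMIs in positive and 527 of their 565 UMIs in negative cells. The order of the sums there rests on CD74. PTPRC ran the opposite way, at 45.3 CPM in positive and 17.2 CPM in negative cells, as did CD79A. The other immune markers were mixed, with CSF1R at 5.03 and 13.8 CPM. Epithelial markers summed to between 15.1 and 44.2 CPM and endothelial markers to between 11.0 and 52.2 CPM. Cartilage markers summed to 20.1, 71.4, 22.1 and 32.5 CPM in positive and 13.8, 29.8, 0 and 35.2 CPM in negative cells. In positive cells of LG252 replicate 2 the transcription factor SOX9 gave 192 of their 212 UMIs, and COL2A1 gave 1. Skeletal muscle markers summed to between 4.64 and 27.7 CPM, with MYOD1 and MYOG at 0 and MYF5 at 1, 4, 0 and 0 UMIs. The pericyte and smooth muscle markers summed to 1004, 206, 563 and 185 CPM in positive and 1372, 803, 0 and 200 CPM in negative cells.

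The comparison of positive with negative cells asked what else distinguishes mesenchyme with MSX1 or LHX8. It used the 3 libraries with at least 5 cells of each kind, since LG255 replicate 1 had only 4 negative cells. One gene of 5729 passed (0.0175%), lower in positive cells, with edgeR's quasi-likelihood test, the library as a block and Benjamini-Hochberg adjustment at 0.05. At an unadjusted p under 0.05 there were 372 genes (6.49%), and DESeq2 called 0 after adjustment and 88 before it. With every cell thinned to 1000 UMIs edgeR called 0. Estimates were above 0 for 49.6% of the genes.

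The gene that fell was MUSTN1, which encodes a small nuclear protein of the musculoskeletal system (chromosome 4, 104294589 to 104309679). It had 3, 61, 0 and 0 UMIs in positive cells and 54, 86, 0 and 1 UMIs in negative cells. This gave 7.55, 20.6, 0 and 0 CPM against 92.9, 107, 0 and 3.91 CPM, with positive cells lower in each library that had any UMI. Its log2 fold change was −2.71 (SE 0.33, edgeR adjusted p 0.0232, n = 3 libraries). The UMIs came from few cells: 3 of 131 positive and 10 of 283 negative cells in LG252 replicate 1, and 11 of 501 and 11 of 309 in replicate 2. MUSTN1 led cluster 7 with the smooth muscle genes TAGLN and ACTA2, which had estimates of −1.47 (SE 0.30, adjusted p 0.453) and −1.44 (SE 0.27, adjusted p 0.434) and were not called.

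Which genes passed depended on the libraries in the fit. Without LG252 replicate 1 there were 25 calls (0.397% of those tested), 4 higher and 21 lower in positive cells. Of the 25, 9 have only a locus number. That fit held only 2 libraries, 1 per animal, so its calls have less of a replicate check than the fit of 3 libraries. The 3 higher genes with symbols were MME (log2 1.43), SPOCK1 (1.85) and SNAI1 (1.23), a zinc-finger repressor of epithelial genes. SPOCK1 was at 117 CPM in positive and 27.3 CPM in negative cells of LG252 replicate 2, at 190.1 and 54.8 CPM in LG255 replicate 2, but at 2.52 and 5.16 CPM in LG252 replicate 1. MME ran at 566 and 185 CPM, then 1155 and 411 CPM, and in LG252 replicate 1 at 7.55 and 20.6 CPM. Both genes were therefore higher in positive cells of 1 library of each animal. In LG252 replicate 1, where their levels were low, they ran the opposite way. Neither was called in the fit of all 3 libraries. The remaining higher call, LOC129340998, had 1730 of its 1826 UMIs in positive cells of LG252 replicate 2 in 1 cell.

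Among the 21 genes called lower without LG252 replicate 1, those named here were picked after their values were seen. C1S had an estimate of −1.68 and C1R of −1.63, both proteases of the first complement component, and SERPING1, their inhibitor, of −2.42. C1S was at 244 and 860 CPM in positive and negative cells of LG252 replicate 2 and at 241 and 559 CPM in LG255 replicate 2, but at 2653 and 2495 CPM in LG252 replicate 1. ACTA2 (−1.98), TAGLN (−2.04) and LMOD1 (−2.30), all of smooth muscle, were lower as well, as were MUSTN1 (−2.49), the matrix gene ABI3BP (−2.55) and the fibrillar collagen gene COL11A1 (−2.82). The pericyte and smooth muscle markers, which include ACTA2 and TAGLN, moved with these genes, and their part in the result was not tested. Without LG252 replicate 2 there were 9 calls (0.198%), of which SPP1 (osteopontin), a phosphoprotein of mineralised tissue, was higher (2.64). However, 73 of its 111 UMIs in positive cells of LG255 replicate 2 came from 1 cell. In LG252 replicate 1, the other library of that fit, SPP1 had 1 UMI in positive and 5 UMIs in negative cells, so it was not higher there. Without LG255 replicate 2 there was no call.

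**Figure D4:**
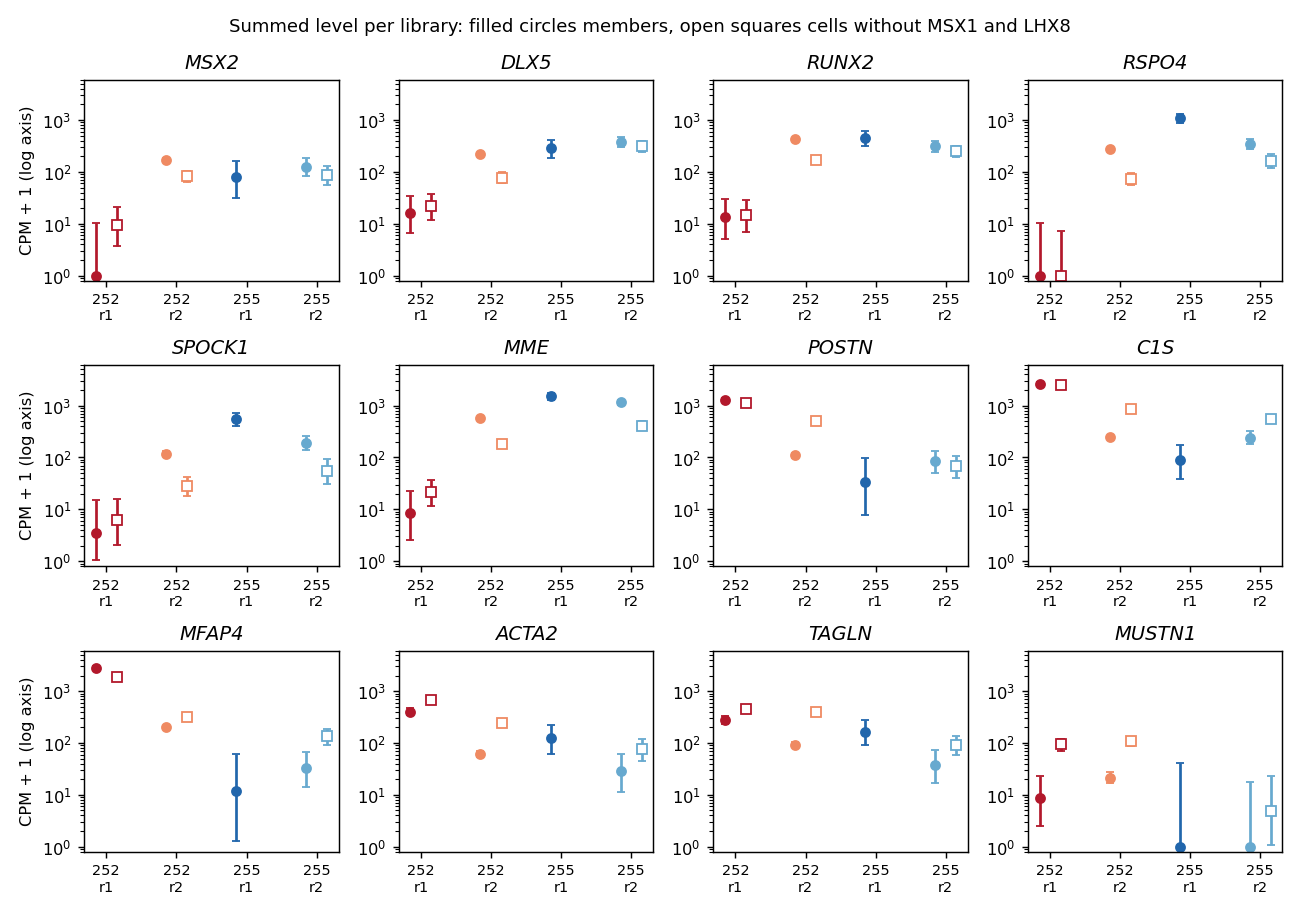
Level of 12 genes in positive cells (filled circles) and negative cells (open squares) of each library, as CPM + 1 on a log axis with 95% Poisson counting intervals. The 4 negative cells of LG255 replicate 1 are not drawn. MSX2, RSPO4, SPOCK1 and MME are at 20.6 CPM or less in both kinds of cell of LG252 replicate 1, and C1S, POSTN and MFAP4 are highest there.

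Among the regulators of dental mesenchyme 0 of 30 tested genes were called, 17 had estimates above 0 and the median log2 fold change was 0.10, beside −0.0041 over all genes. Without LG252 replicate 1 the median was −0.024, with 15 of 30 above 0 and 0 called, so the sign of the list's median turned with that library. In all 3 libraries 7 of the 30 had higher levels in positive cells (PDGFRA, INHBA, DLX6, LHX6, TNC, CDH11 and FOXF1), as did 18.7% of all genes. Lower or equal levels in all 3 were found for 3 of the 30 (MDK, BMP7 and FOXD1) and for 10.3% of all genes. LHX6, the relative of LHX8, was at 30.2, 27.3, 66.3 and 37.1 CPM in positive cells and 25.8, 11.2, 0 and 11.7 in negative cells. Its estimate was 0.87 (SE 0.37, edgeR adjusted p 0.721), and the 0 in negative cells of LG255 replicate 1 allows up to 163 CPM. RUNX2 had an estimate of 0.69 (SE 0.28, adjusted p 0.721). The dental regulators gave no call, but only 0.0175% of all genes were called, so 0 of 30 does not set them apart. SFRP2 was the only one of them called in any alternative, lower (log2 −1.30) without LG252 replicate 2.

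Of the signalling lists none had a called gene, beside 0.0175% called over all genes, so this does not set the lists apart. For the BMP pathway 11 of 17 estimates were above 0 (median 0.15), for WNT 9 of 21 (−0.04), for hedgehog 7 of 9 (0.27), for FGF 2 of 8 (−0.28), for TGF-beta and activin 5 of 12 (−0.13), and for Notch 4 of 6 (0.06). Without LG252 replicate 1 these lists again had 0 calls, and their medians were 0.26 for BMP, −0.06 for WNT, 0.35 for hedgehog, −0.17 for FGF, −0.51 for TGF-beta and activin and 0.22 for Notch. RSPO4 was at 0, 272, 1082 and 348 CPM against 0, 72.0, 163 and 164 CPM (estimate 1.42, SE 0.29, adjusted p 0.517). It was higher in positive cells of each library that held it, without passing the test. The 163 CPM in LG255 replicate 1 is the level of 3 counts over 4 negative cells, and that library was not in the fit. SEMA6A, a transmembrane semaphorin of axon guidance, had 1.24 (SE 0.31, adjusted p 0.538), and 13 of 22 axon guidance genes lay above 0 (median 0.09), or 16 of 23 (0.20) without LG252 replicate 1.

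Of the genes of differentiated tooth tissue, DSPP and SP7 were sparse in positive cells, and others were mixed. DSPP, the main non-collagen protein gene of dentin, had 0, 3, 0 and 0 UMIs in positive and 0, 6, 0 and 13 in negative cells. SP7, an osteoblast transcription factor, had no UMI in positive cells. ALPL was at 13.8 and 3.72 CPM in positive and negative cells of LG252 replicate 2. In LG255 replicate 2 it had 2 UMIs in each kind, and it had none in the other libraries. A UMI of the 7 measured odontoblast or osteoblast markers was in 22.8% of positive and 7.44% of negative cells of LG252 replicate 2, without thinning. Summed, these markers stood at 107 and 179 CPM there. IBSP was at 0, 68.1, 22.1 and 18.5 CPM in positive and 0, 129, 0 and 93.9 CPM in negative cells (estimate −1.30, SE 0.34, adjusted p 0.569), but 63 of 104 negative UMIs in LG252 replicate 2 and 22 of 24 in LG255 replicate 2 came from 1 cell each. Of 9 odontoblast and mineralised matrix genes tested 6 had estimates above 0 (median 0.03). Of 8 dental follicle genes 1 did (median −0.46) and of 14 connective tissue fibroblast genes 4 did (median −0.44), again with 0 calls. Without LG252 replicate 1 the medians of these 3 lists were −0.11, −0.57 and −0.78, and COL11A1 of the mineralised matrix list and ACTA2 of the follicle list were called lower.

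Transcripts of dividing cells were found in positive cells outside LG252 replicate 1. A UMI of MKI67 or TOP2A, both made in dividing cells, was present in 0 of 131 positive cells there, which allows up to 2.29% of cells with such a UMI and does not limit cells whose transcripts were not captured. In the other libraries it was present in 121 of 501 (24.2%), 4 of 15 (26.7%) and 3 of 49 (6.12%). Negative cells gave 1 of 283, 24 of 309 (7.77%), 0 of 4 and 10 of 59 (16.9%). Thinned to 1000 UMIs, the share in LG252 replicate 2 was 11.4% in positive and 4.26% in negative cells. LG255 replicate 2 had its higher share in negative cells. Of 10 cell cycle genes 9 had estimates above 0 (median 0.29) and 0 were called. Without LG252 replicate 1 all 19 genes then tested were above 0 (median 0.55), with 0 called.

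MSX1-only and LHX8-only cells were compared in the libraries of LG252, with 22 and 96 such cells in replicate 1 and 128 and 153 in replicate 2. Of 5736 genes 2 were called (0.0349%), both higher in MSX1-only cells, by the same edgeR test, with 225 (3.92%) at an unadjusted p under 0.05. DESeq2 called 0 after adjustment and 29 before it. LOC129345000 (chromosome 17, 18515785 to 18519905) was at 676 and 345 CPM in MSX1-only cells and at 76.1 and 106 CPM in LHX8-only cells (log2 2.31, SE 0.38, adjusted p 0.0316, n = 2 libraries). It was higher in both libraries, with 16 of 44 and 67 of 225 UMIs of the MSX1-only cells in 1 cell each. The other call, LOC129340998 (log2 5.06, SE 0.90, adjusted p 0.0497), rested on a single cell with 97.6% of its 1772 UMIs. In LG252 replicate 2 MSX1 was found in 116 and LHX8 in 71 positive cells of cluster 5, and in 177 and 186 of cluster 1.

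The genes whose presence most resembled that of MSX1 or LHX8 were weakly related to it. Over 726 thinned mesenchymal cells of LG252 replicate 2 and 2417 genes, the 10 highest Pearson correlations ran from 0.137 to 0.176, which is a description within 1 library whose cells share depth and animal. Among them were SRD5A2, SLIT3, SFRP2, RSPO4, LRP1, HHIP, PDGFD, NBEA and RUNX2. SRD5A2, a steroid 5-alpha-reductase, had a UMI in 22.4% of positive and 3.40% of negative thinned cells, and RUNX2 in 31.6% and 8.94%. In LG255 replicate 2 SRD5A2 stood at 23.4% of positive and 23.6% of negative cells, and RUNX2 at 29.8% and 20%. The order turned there for SLIT3 (19.1% and 30.9%), SFRP2 (27.7% and 43.6%) and HHIP (8.51% and 18.2%). RSPO4 (23.4% and 10.9%), LRP1 (14.9% and 12.7%), PDGFD (21.3% and 16.4%) and NBEA (8.51% and 5.45%) were higher in positive cells there. With only 47 positive and 55 negative thinned cells, the gaps of LRP1 and NBEA rest on few cells. In LG252 replicate 1 NBEA (7.14% and 13.7%) and SFRP2 (6.25% and 10.8%) were lower in positive cells. LRP1 (20.5% and 14.2%) and SLIT3 (13.4% and 8.82%) were higher there. RUNX2 (0.893% and 2.45%), HHIP (0.893% and 0.980%) and PDGFD (0.893% and 0.490%) were found in very few of its 112 positive and 204 negative thinned cells. NBEA had an estimate of −0.29 (SE 0.24) in the fit of 3 libraries. In LG252 replicate 1 neither SRD5A2 nor RSPO4 was found in a thinned cell of either kind.

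Between the animals, 36 of 4374 genes (0.823%) were called in positive cells by edgeR, 26 higher in LG252 (0.594%) and 10 lower (0.229%). At an unadjusted p under 0.05 there were 627 (14.3%). The higher genes were led by chaperones and early response genes and the lower ones by mitochondrially encoded genes, which were 9 of the 10. Mitochondrial UMIs made up a median of 0.979% and 0.976% of a positive cell in LG252 and 4.61% and 4.03% in LG255. Without either LG255 library 0 genes were called, and without LG252 replicate 1 or 2 there were 269 and 710.

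HSPA2, an HSP70 chaperone whose near copies can share reads, was at 7364, 6039, 33.1 and 46.4 CPM (log2 7.55, SE 0.43, adjusted p 0.00313, n = 2 libraries per animal, edgeR). The small heat shock protein HSPB6 was at 4555, 2726, 11.0 and 23.2 CPM, and JUND, a subunit of the AP-1 transcription factor, at 1434, 1742, 33.1 and 13.9 CPM. PPP1R15A, which restores translation after stress, had 1421 UMIs over the positive cells of LG252 against 3 over those of LG255, and the ratio of its levels was 43.1 (95% counting interval 14.7 to 209). In each case both LG252 libraries lay above both LG255 libraries, which was a condition for naming these genes. The subunit COX1 of cytochrome oxidase ran the opposite way, at 314, 418, 8911 and 6376 CPM (log2 −4.17, SE 0.32, adjusted p 0.00451, edgeR), as did ATP6 of the ATP synthase at 284, 432, 7023 and 6770 CPM.

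**Figure D5:**
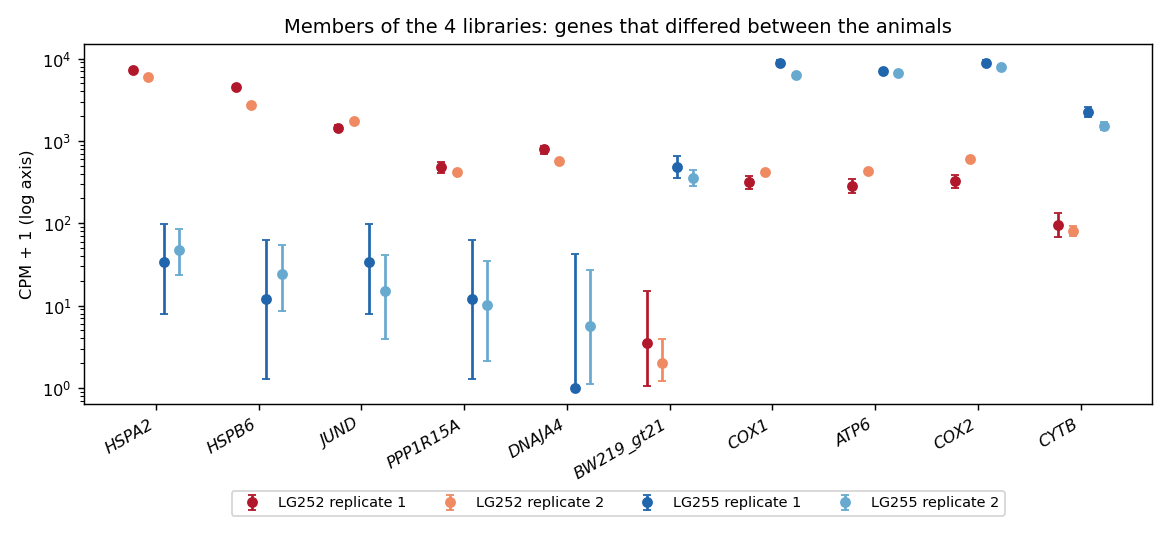
Level of the 10 genes named between the animals in positive cells of each library, as CPM + 1 on a log axis. Points are libraries, and the 5 nuclear genes lie higher in both libraries of LG252 and the 5 mitochondrial ones in both of LG255. This separation was a condition for naming them.

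By list, 3 of 15 heat shock genes were called, all higher in LG252 (HSPA2, HSPB6 and the co-chaperone DNAJA4; median log2 0.50). Of 24 immediate early genes 7 were called, all higher (NR4A1, EGR1, IER3, JUND, KLF4, PPP1R15A and EGR3), and all 24 estimates were above 0 (median 3.08, against 0.02 over all genes). Of 26 dental mesenchyme regulators 0 were called, beside 0.823% of all genes, 19 had estimates above 0 and the median was 0.80. The test of whether positive and negative cells differed in another way in the 2 animals called 0 of 5729 genes by edgeR (261, or 4.56%, at an unadjusted p under 0.05) and 0 by DESeq2 (41 unadjusted), with 3 libraries and 1 of them for LG255.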

How the data were processed

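The deposited values are whole-number UMI counts per gene and barcode, output of the authors' Cell Ranger runs, whose version is 7.1.0 per the file headers and 2.1.0 per the submitters' processing notes. There are 24025 features, and 9371 of these carry only a locus number. Genes of each list that are not among them were not used here, and some named by the rules are not reported here. UMIs are molecules, yet intervals and floors (3 counts) cover counting error only.

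The members, gene lists and tests were chosen with earlier results of these data known. Counts were summed per library and cell group, and compared with edgeR 4.0.16 (R 4.3.3) after TMM scaling and filterByExpr, with Benjamini-Hochberg adjustment at 0.05. A library entered positive against negative with at least 5 cells of each kind, and the library was a block there and for MSX1-only against LHX8-only cells. Genes used to choose cells were left out of every count. A standard error is the size of a log2 fold change divided by the root of its F statistic. The procedure was tested on simulated data. DESeq2 1.42.0, other scaling, no filter, thinning to 1000 UMIs, other cell thresholds and leaving out each library were the alternatives.

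Named genes were to be those past the threshold with a symbol and the smallest p, and list members past it. Up to 12 a direction were taken between positive and negative cells and 5 elsewhere. All but the list members also needed the same direction in every library, and between the animals no overlap of their libraries. Few genes passed, so uncalled genes, and genes called only without 1 library, were named from the lists or after their values were seen. Cells were clustered with scanpy 1.11.5. Scrublet's automatic threshold called 19 doublets in 8531 cells, which is too few to have worked, so 207 cells were called at an assumed 0.8% per 1000 cells. These included 17 positive and 30 negative cells, which were kept except in 1 alternative.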

Additional observations from a re-analysis of the deposited data

Results flagged for a closer look

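MSX1 or LHX8 also had UMIs in cells outside the mesenchymal gate, which the comparisons did not use. Of 1175 cells with 1 to 4 UMIs of the gate genes, 20 carried the pair (1.70%, exact 95% binomial interval 1.04 to 2.62, median 6652 UMIs), beside 0.0433% of cells with PTPRC and 0.143% of cells with EPCAM that had no UMI of the gate genes. Of 76 cells that passed the collagen gate but had 10 or more UMIs of LOC129339097, 11 carried it (14.5%, 7.45 to 24.4, median 11293 UMIs). These counts are small, and the cause was not tested.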

How the results depend on the processing

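The call of 1 gene between positive and negative cells became 0 with DESeq2, thinning, no library block, at least 1 cell per library, 2 or more UMIs of the pair, LHX8 alone, at least 3000 UMIs, a gate of 10, or without doublets or cells with PTPRC, EPCAM, PECAM1 or CDH5. It became 86 without a filter and 30 with MSX1 alone, and leaving out 1 library gave 0 to 25. The dental list gave 0 throughout, except 1 without LG252 replicate 2 (0 to 1 when 1 library was left out). Between animals there were 154 calls with DESeq2, 400 without a filter (where the median of all genes was 0.48) and 0 to 710 when 1 library was left out. MSX1-only against LHX8-only cells gave 0 with DESeq2 or without the block, 16 with RLE scaling and 24 without a filter. The interaction gave 51 without a filter. The animal difference in positive share lay between −32.2 and 1.38 points when 1 library was left out and between −17.9 and −2.31 under the other settings. Between animals, the replicate block gave 46 calls, 32 shared with the 36. The deviations of same-numbered libraries from their animal mean had r = −0.09 over 4374 genes. Since LG255 replicate 1 had only 15 positive cells and much counting error, this r cannot settle whether same-numbered libraries belong together. Leaving out a library was impossible for the MSX1-only comparison and the interaction, which then have no residual degrees of freedom. Of 907 values of 61 named genes 4 turned sign: FOSL2 to −0.062 when thinned, and HHIP, SLIT3 and SRD5A2 without LG252 replicate 2. With 1 library left out HHIP ran from −0.13 to 0.92, SLIT3 from −0.071 to 0.55 and SRD5A2 from −0.25 to 2.13. In LG255 replicate 1, with 15 positive cells, a gene at 0 UMIs can lie anywhere up to 33.1 CPM. The causes were not tested.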
